A study of Homo sapiens with 24 samples.

Results

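The NR2F genes encode the COUP-TF nuclear receptors, and 5 genes of the family were followed here, namely the receptors *NR2F1*, *NR2F2* and *NR2F6* and the antisense RNAs *NR2F1-AS1* and *NR2F2-AS1*. They were chosen as genes of a family, with earlier results of these data known, and make up 5 of the 58051 gene identifiers in the files. RNA had been sequenced from clones of HT29, HCT116 and SW480 cells, which are cell lines from human colorectal tumours, to find which transcripts depend on β-CATENIN. In KO clones both alleles of *CTNNB1*, the gene for β-CATENIN, had been inactivated with CRISPR/Cas9 by deleting an exon, which shifts the reading frame and leads to a premature stop codon, whereas WT clones kept both alleles of their line. Per the study, HT29 and SW480 carry inactivating mutations in *APC*, and HCT116 carries a gain-of-function mutation in *CTNNB1*. WT in HCT116 thus means the alleles of the line, not a normal β-CATENIN. HT29 was represented by WT 11, WT 40, KO 28 and KO 38, HCT116 by WT 4, WT 6, KO 44 and KO 47, and SW480 by WT 4, WT 5, KO 17 and KO 21. Each clone went through 2 independent rounds of RNA-seq, A and B, which the study calls biological replicates. There were thus 24 libraries, 4 for each line and genotype, and a library is called by clone and round, as in KO 38B. All clones grew in the same medium, and no other treatment is given. A genotype thus rests on 2 clones, and p-values over 4 libraries treat both rounds of a clone as separate samples.

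COUP-TFs are orphan members of the nuclear receptor superfamily, that is, receptors found without a known hormone. They bind as dimers, with each other or with the retinoid X receptors (RXRs), to repeats of a short DNA element. Depending on the cofactors they recruit they repress or activate transcription, and they are best known from the development of neurons, vessels, heart and gut. *NR2F1* encodes COUP-TFI, *NR2F2* encodes COUP-TFII, and *NR2F6* encodes the more distant relative EAR2. *NR2F1-AS1* and *NR2F2-AS1* are long noncoding RNAs transcribed from the opposite strand, each starting close to the 5′ end of its receptor gene. β-CATENIN itself does not bind DNA but is brought to its target genes by TCF/LEF factors, which recognise elements with the core CTTTGA.

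In GRCh37, *NR2F1* (ENSG00000175745) lies on the plus strand at chr5:92918928-92930317 and *NR2F1-AS1* (ENSG00000237187) on the minus strand at chr5:92696485-92921355. The spans of the pair overlap by 2428 bases, but their exons share only 158 bases, which is 3.61% of the exonic bases of *NR2F1* and 0.695% of those of *NR2F1-AS1*. *NR2F2* (ENSG00000185551) lies on the plus strand at chr15:96869167-96883492 and *NR2F2-AS1* (ENSG00000247809) on the minus strand at chr15:96653269-96870590. Their spans overlap by 1424 bases and their exons share 0 bases. *NR2F6* (ENSG00000160113) lies on the minus strand at chr19:17342692-17356728, and 8.32% of its exonic bases are shared with ENSG00000269095, a gene on the same strand. The libraries were made with a kit that does not mark the strand, so that reads in the 158 shared bases cannot be assigned to *NR2F1* or *NR2F1-AS1*, and the same holds for the bases that *NR2F6* shares.

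Promoter sequences of 300 bases, from 250 before to 50 after a transcription start, were taken from RefSeq on GRCh38.p14. This table holds 11 windows for 4 of the 5 genes and no entry for *NR2F6*. The windows were searched on both strands for the TCF/LEF core CTTTGA, which reads TCAAAG on the other strand, and for the longer CTTTGAT, which contains the core and reads ATCAAAG on the other strand. The core is present in 12.9% of all 35116 promoter windows of the table, and CTTTGAT in 2.62%. Both windows of *NR2F1* contain 2 matches to the core, 1 of which extends to CTTTGAT, and CTTTGAT occurs in 0 windows of the other 3 genes. The core occurs in 1 of 5 windows of *NR2F1-AS1*, in 1 of 2 of *NR2F2* and in 1 of 2 of *NR2F2-AS1*. The second *NR2F1* window lies downstream of the first and inside the gene, so only the first can cover the gene start. Both *NR2F2* windows lie inside the gene, and none covers the start of its span. The *NR2F2* match lies in letters that read as codons of the receptor, that is, in coding sequence. *NR2F1* and *NR2F2* can thus not be compared by these windows at the starts of both genes. The 5 windows with a match are printed below 5′ to 3′ on the strand of the gene, with the matches in capitals, because they show where the genes that are compared here carry the letters of this element. A match of letters is no measurement of binding.
NR2F1 first window, chr5:93582972-93583271 plus strand: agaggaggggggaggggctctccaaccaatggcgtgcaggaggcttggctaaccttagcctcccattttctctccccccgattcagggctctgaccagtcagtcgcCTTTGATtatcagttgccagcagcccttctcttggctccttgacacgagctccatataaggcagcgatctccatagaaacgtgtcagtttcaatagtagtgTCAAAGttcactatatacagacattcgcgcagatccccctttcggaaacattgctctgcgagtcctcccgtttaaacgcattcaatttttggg
NR2F1 second window, chr5:93586849-93587148 plus strand: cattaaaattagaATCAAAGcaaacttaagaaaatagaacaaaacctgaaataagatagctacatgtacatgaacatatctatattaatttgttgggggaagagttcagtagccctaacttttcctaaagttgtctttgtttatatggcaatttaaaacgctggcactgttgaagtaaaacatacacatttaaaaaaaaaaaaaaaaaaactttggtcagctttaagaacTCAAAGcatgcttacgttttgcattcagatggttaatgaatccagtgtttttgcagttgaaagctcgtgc
NR2F1-AS1, chr5:93581170-93581469 minus strand: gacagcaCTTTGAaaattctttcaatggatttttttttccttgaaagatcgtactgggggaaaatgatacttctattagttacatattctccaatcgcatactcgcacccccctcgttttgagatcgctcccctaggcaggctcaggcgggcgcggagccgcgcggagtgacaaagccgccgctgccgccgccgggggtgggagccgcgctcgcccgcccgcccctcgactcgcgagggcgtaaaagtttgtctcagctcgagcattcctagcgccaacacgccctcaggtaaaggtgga
NR2F2, chr15:96332315-96332614 plus strand: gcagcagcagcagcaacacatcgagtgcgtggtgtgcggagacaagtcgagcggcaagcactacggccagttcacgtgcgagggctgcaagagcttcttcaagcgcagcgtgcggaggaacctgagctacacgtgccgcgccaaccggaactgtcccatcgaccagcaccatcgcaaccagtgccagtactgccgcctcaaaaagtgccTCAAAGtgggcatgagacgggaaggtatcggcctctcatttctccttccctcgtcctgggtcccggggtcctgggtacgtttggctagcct
NR2F2-AS1, chr15:96327312-96327611 minus strand: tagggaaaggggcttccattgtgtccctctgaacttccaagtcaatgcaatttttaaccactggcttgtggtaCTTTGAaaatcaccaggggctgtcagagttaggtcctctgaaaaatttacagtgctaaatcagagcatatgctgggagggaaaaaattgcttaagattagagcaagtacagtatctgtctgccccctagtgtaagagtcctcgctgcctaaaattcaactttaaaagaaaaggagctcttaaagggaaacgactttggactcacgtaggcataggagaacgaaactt
In the first *NR2F1* window CTTTGAT starts at position −144 and TCAAAG at −43 relative to the transcription start. In the second, ATCAAAG starts at −237 and TCAAAG at −20. The match is at −243 in the *NR2F1-AS1* window, at −177 in the *NR2F2-AS1* window and at −41 in the *NR2F2* window.

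Values below are normalized counts, that is, reads per gene divided by 1 size factor per library. The reads counted on genes ran from 22297049 to 29068378 per library. *CTNNB1* was low in every KO library, at 256 to 337 against 5883 to 6113 in WT libraries of HT29, 187 to 255 against 10512 to 12800 in HCT116, and 839 to 1312 against 43114 to 50939 in SW480. The epithelial keratin genes *KRT8* and *KRT18* were at 70711 or more and at 23452 or more in each library, whereas the leukocyte markers *PTPRC* and *CD3E* were at most at 4.28 and 6.76. HCT116 KO 47A stood apart, as it listed reads for 35449 genes whereas the other 23 libraries listed 20256 to 24944, and values without it are given for KO effects, ratios, correlations of the pairs, clones and list counts. A change passed the test at an adjusted p under 0.05 from limma with Benjamini-Hochberg adjustment over all genes tested in a line, and a DEG also had an absolute log2 fold change over 1. Fold changes are on the scale of log2(value + 1).

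The 3 receptors were transcribed in all WT libraries, in an order that differed between the lines. Per kb of exons, HT29 WT libraries held 1151 ± 160.2 normalized counts of *NR2F6* (SD, n = 4), 621 ± 83.4 of *NR2F2* and 268 ± 48.7 of *NR2F1*, and the libraries of these 3 genes did not overlap. In HCT116 WT libraries *NR2F2* was at 1133 ± 324 per kb, *NR2F6* at 807 ± 145 and *NR2F1* at 471 ± 179.9, but *NR2F2* and *NR2F6* overlapped. In SW480 WT libraries *NR2F1* was at 589 ± 115 per kb, *NR2F2* at 445 ± 107 and *NR2F6* at 433 ± 44.9, and the last 2 overlapped in range. Thus *NR2F6* led in HT29 and *NR2F1* in SW480, where the lowest *NR2F1* value of 454 per kb still lay within the ranges of *NR2F2* and *NR2F6*. Divided by all their annotated exons, the antisense RNAs were much lower, with *NR2F1-AS1* at 17.4, 18.3 and 11.9 and *NR2F2-AS1* at 0.526, 4.72 and 1.74 normalized counts per kb of exons in HT29, HCT116 and SW480 WT libraries. These per-length levels depend on the annotation, which gives *NR2F1-AS1* 75 transcripts and 22.7 kb of exons. Over the 1.54 kb of its main transcript alone the levels of *NR2F1-AS1* would be 258, 271 and 176. In HT29 this would be close to the 268 of *NR2F1* over all its exons. The main transcript of *NR2F2-AS1* has 0.549 kb, against 11.966 kb of exons, so its levels would also be higher. How far the antisense RNAs lie below the receptors per length thus depends on the transcripts assumed.

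Between lines, the WT levels of a gene can be compared directly. Of all genes tested 58.4%, 60.3% and 60.5% differed between WT libraries of HT29 and HCT116, HT29 and SW480, and HCT116 and SW480, respectively, so that a difference in level was the rule. *NR2F6* differed in all 3 comparisons, with HT29 highest and SW480 lowest (log2 differences of 0.52, 1.41 and 0.89, limma adjusted p = 0.0125, 2.1e-07 and 9.9e-05), although the first missed the threshold with the clone as a random effect (0.0611). *NR2F2* was higher in HCT116 than in HT29 (−0.83 for HT29 minus HCT116, adjusted p = 0.00808) and SW480 (1.33, adjusted p = 1.1e-04), and HT29 and SW480 did not pass (0.50, adjusted p = 0.0987). *NR2F2-AS1* was ordered HCT116, SW480 and HT29, and passed in each comparison, with log2 differences of −2.92 for HT29 minus HCT116, −1.59 for HT29 minus SW480 and 1.33 for HCT116 minus SW480 (adjusted p at most 0.00389). *NR2F1* was lower in HT29 than in SW480 (−1.13, adjusted p = 0.0406) and did not pass otherwise. This one call was lost without HT29 WT 11B, 40A or 40B or SW480 WT 4A, 4B or 5B, with adjusted p from 0.0589 to 0.0912, and with the clone as a random effect (adjusted p = 0.0520). *NR2F1-AS1* passed in 0 of the 3 comparisons.

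*NR2F1*, the gene for COUP-TFI, was lower in every KO library than in every WT library of each line. In HT29 it was at 1468 and 1189 in rounds A and B of WT 11, 991 and 1046 in WT 40, 419 and 379.7 in KO 28, and 54.1 and 72.6 in KO 38. The KO clones were thus both low, but KO 38 was far lower than KO 28. In HCT116 *NR2F1* was at 2625 and 2850.1 in WT 4, 1481 and 1295 in WT 6, 462 and 359 in KO 44, and 472 and 669.9 in KO 47. Here the WT clones stood further apart than the rounds of a clone, and the KO clones lay close together. The SW480 values were 2896 and 3092 in WT 4, 1990.4 and 2343 in WT 5, 208 and 228 in KO 17, and 305 and 303 in KO 21. The group means went from 1174 ± 213 to 231 ± 195 in HT29, from 2063 ± 788 to 491 ± 130.0 in HCT116, and from 2580.3 ± 505 to 261 ± 50.7 in SW480 (SD, n = 4), which left 19.7%, 23.8% and 10.1% of the WT mean, and 24.1% in HCT116 without KO 47A. In such bulk RNA, fewer cells with the transcript and less transcript per cell cannot be told apart.

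*NR2F1* fell as a DEG in HCT116, with a log2 fold change of −2.02 (standard error 0.27, limma adjusted p = 0.00103). It was also a DEG in SW480, at −3.30 (standard error 0.17, adjusted p = 1.8e-07). In HT29 it did not pass the test (−2.86, standard error 0.65, adjusted p = 0.0596). Of the genes tested, 0.402% were DEGs lower in KO in HT29, 1.89% in HCT116 and 6.76% in SW480, and the KO and WT libraries did not overlap for 13.0%, 20.5% and 46.2%. Without either HT29 KO clone *NR2F1* passed, with −1.54 without KO 38 (adjusted p = 0.00552) and −4.19 without KO 28 (adjusted p = 4.3e-04). With DESeq2 *NR2F1* passed in HT29 as well (−2.38, adjusted p = 0.00199). It did not pass in the other 20 of 23 alternatives in HT29, among them edgeR and the clone as a random effect. The highest adjusted p of these was 0.825, from limma with the reads of a clone summed. The study, which used DESeq2, counted *NR2F1* among the genes that fell in all 3 lines. The limma result in HT29 thus differs from the call of the study. In HCT116 the value without KO 47A was −2.02 (adjusted p = 0.00475), and with the reads of a clone summed, which leaves 2 clones against 2, the adjusted p was 0.0742. Across the 4 pairs of a KO and a WT clone of a line, the WT clone held 2.55 to 21.0 times as much *NR2F1* in HT29, 2.43 to 6.67 times in HCT116 and 7.12 to 13.8 times in SW480. *NR2F1* was among the genes the study named from these same libraries, so its direction is no independent evidence.

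*NR2F1-AS1* was also lower in every KO library than in every WT library of its line. In HT29 it was at 531 and 417 in WT 11, 319 and 318 in WT 40, 139 and 166 in KO 28, and 15.2 and 19.4 in KO 38. In HCT116 it was at 524 and 556 in WT 4, 309.5 and 275 in WT 6, 185 and 172 in KO 44, and 262 and 229 in KO 47. The groups were close there, since the highest KO library of 262 was just below the lowest WT library of 275. The SW480 values were 308 and 304 in WT 4, 237 and 234 in WT 5, 93.1 and 107 in KO 17, and 141 and 136 in KO 21. The KO mean was 21.4% of the WT mean in HT29, 51.0% in HCT116 (47.0% without KO 47A) and 44.1% in SW480. The HT29 KO 38 values rest on only 16 and 15 reads.

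*NR2F1-AS1* fell as a DEG in SW480 (−1.18, standard error 0.17, limma adjusted p = 2.2e-04) and fell in HCT116 by less than the threshold of a DEG (−0.92, standard error 0.24, adjusted p = 0.0284). In HT29 the change of −2.88 did not pass (standard error 0.76, adjusted p = 0.0968). For comparison, 0.476% of all genes tested in HT29 passed and were lower in KO, as were 5.93% for HCT116 and 22.1% for SW480. As for *NR2F1*, the HT29 change passed when a single KO clone was kept, with −1.34 without KO 38 (adjusted p = 0.0282) and −4.42 without KO 28 (adjusted p = 6.1e-04). The spread between KO clones is not in the error of these fits. With both clones kept, the adjusted p from limma was 0.179 with the clone as a random effect and 0.867 with the reads of a clone summed. The call in HCT116 depended on single libraries. It was lost without KO 44A (adjusted p = 0.0726), KO 44B (0.0801), WT 4A (0.0630) or WT 4B (0.0844) and with the clone as a random effect (0.0544), and it held without KO 47A (−1.03, adjusted p = 0.0313).

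The log2 ratio of *NR2F1* to *NR2F1-AS1* overlapped between KO and WT libraries in HT29 and did not overlap in the other lines. The ratio of receptor to antisense, as log2 of (value + 1) over (value + 1), had a mean of 1.58 ± 0.11 for the WT and of 1.60 ± 0.30 for the KO libraries of HT29 (SD, n = 4), a difference of 0.02 (exact two-sided permutation test, p = 0.943). HCT116 WT libraries had ratios from 2.23 to 2.36 and KO libraries from 0.85 to 1.54, a difference of −1.10. In SW480 the WT ratios were 3.06 to 3.34 and the KO ratios 1.08 to 1.15, a difference of −2.12. In both lines all 4 KO libraries thus lay below all 4 WT libraries. The exact permutation p was 0.0286 in each, which is the smallest that 4 against 4 libraries can give, and after adjustment over the 6 ratios compared it was 0.0857 and did not pass. KO 47A had the lowest of the HCT116 ratios, and without it the difference was −0.99 (exact p = 0.0571, the smallest that 3 against 4 libraries can give). On a linear scale, HT29 WT libraries held 2.99 counts of *NR2F1* per count of *NR2F1-AS1* and KO libraries 3.03, whereas the ratio went from 4.89 to 2.28 in HCT116 and from 9.43 to 2.18 in SW480. The KO libraries of the 3 lines were thus closer to each other in this ratio than the WT libraries.

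The pair was also compared from clone to clone. In 6 of 6 pairs of clones of the same line and genotype, the clone with more *NR2F1* had more *NR2F1-AS1*, by log2 differences of, for example, 2.65 and 3.07 for KO 28 against KO 38 of HT29 and 0.98 and 0.88 for WT 4 against WT 6 of HCT116. Over the 24 libraries the Pearson correlation of the pair on the log2 scale was 0.895 with the mean of each line subtracted, and 0.974 with the mean of each line and genotype subtracted. These values are descriptions, since the 24 points come from 12 clones, and the first of them includes the KO effect. Without KO 47A these correlations were 0.901 and 0.981. In the same comparison of clones *NR2F1* went the same way as *NR2F2* in 5 of 6 pairs and as *NR2F6*, which lies on another chromosome, also in 5 of 6.

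**Figure D1:**
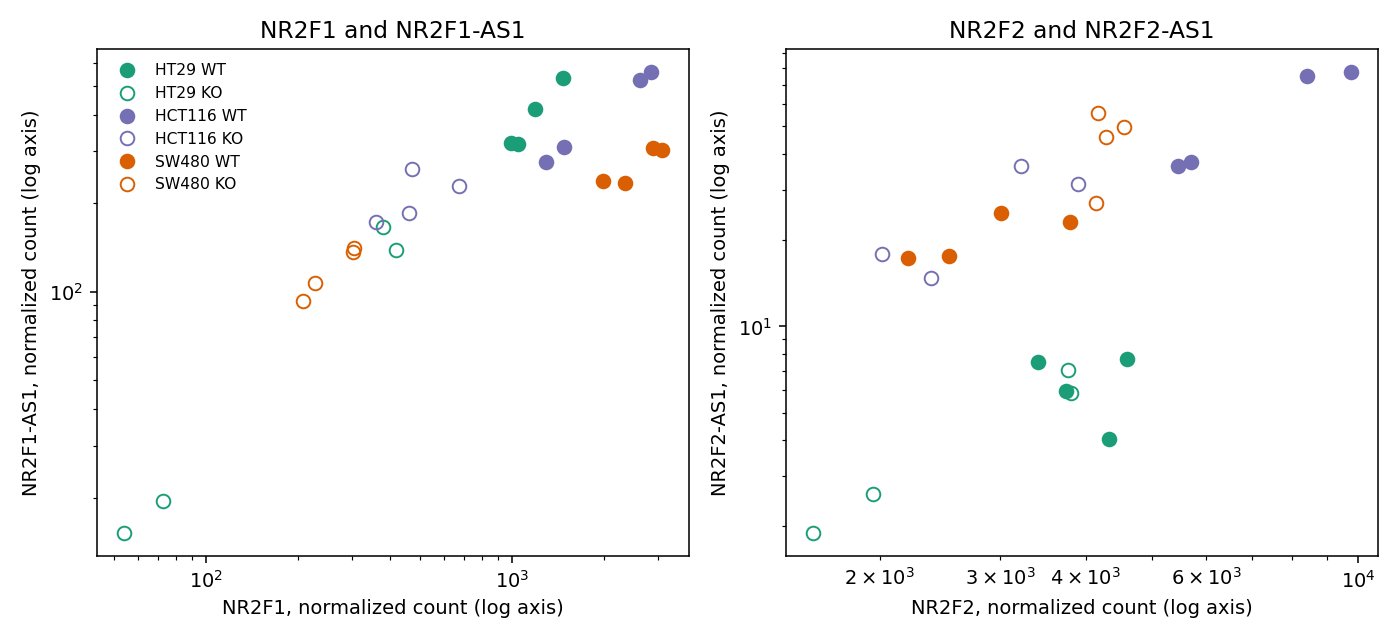
Each receptor (x axis) against its antisense RNA (y axis) as normalized counts on log axes, with 1 point per library, the colour for the line and filled points for WT. *NR2F1* and *NR2F1-AS1* fall along a rising band, with the HT29 KO 38 libraries at the lower left, and *NR2F2-AS1* is at most at 7.68 in the HT29 libraries whereas *NR2F2* is at 1596 or more.

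*NR2F2*, the gene for COUP-TFII, changed in opposite directions in HCT116 and SW480. In HCT116 it was at 5708 and 5461 in WT 4, 8422 and 9757 in WT 6, 2379.7 and 2014 in KO 44, and 3222 and 3899 in KO 47, so that every KO library was below every WT library. The SW480 libraries held 3792 and 3004 in WT 4, 2199.8 and 2526 in WT 5, 4169 and 4284 in KO 17, and 4141 and 4556 in KO 21, and every KO library was above every WT library. In HT29 it was at 4595 and 4329 in WT 11, 3745 and 3409 in WT 40, 3774 and 3812 in KO 28, and 1596 and 1956 in KO 38. The HT29 KO 28 libraries lay within the WT range and the KO 38 libraries below it, so that the groups overlapped.

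The *NR2F2* mean went from 7337 ± 2098 to 2879 ± 847 in HCT116 (39.2% of WT, and 37.7% without KO 47A) and from 2880.5 ± 692 to 4287 ± 189.5 in SW480 (149%). The fall in HCT116 was a DEG (−1.35, standard error 0.24, limma adjusted p = 0.00503), and it was −1.42 without KO 47A (adjusted p = 0.0107). The rise in SW480 passed the test but stayed below the threshold of a DEG (0.60, standard error 0.14, adjusted p = 0.00587). Genes that passed and were higher in KO made up 2.08% in HT29, 8.05% in HCT116 and 26.1% in SW480, so that a rise in SW480 was common. With the reads of a clone summed the adjusted p was 0.163 in HCT116 and 0.0722 in SW480, and without KO 21 of SW480 it was 0.0577. In HT29 the change did not pass (−0.62, standard error 0.30, adjusted p = 0.343), and without KO 28 it did (−1.18, adjusted p = 0.0253). The latter fit leaves KO 38 as the only KO clone.

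*NR2F2-AS1* was close to the lower limit of detection in HT29 and too low to be tested there. The HT29 libraries held 8 and 4 reads in WT 11, 6 and 6 in WT 40, 7 and 6 in KO 28, and 2 and 2 in KO 38, where a gene with 3 reads or fewer was taken as at its floor. In HCT116 *NR2F2-AS1* was at 37.6 and 36.2 in WT 4, 74.8 and 77.1 in WT 6, 14.7 and 17.9 in KO 44, and 36.4 and 31.4 in KO 47. KO 47A was just above the lowest WT library, so that the groups overlapped. In SW480 it was at 23.2 and 24.8 in WT 4, 17.4 and 17.6 in WT 5, 55.5 and 45.9 in KO 17, and 27.1 and 49.9 in KO 21, with every KO library above every WT library.

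The fold change of *NR2F2-AS1* had the same sign as that of *NR2F2* in HCT116 and SW480. In SW480 it was a DEG (1.04, standard error 0.26, limma adjusted p = 0.00821), as were 10.7% of the genes tested in the same direction, against 3.17% in HCT116 and 1.90% in HT29. This call was lost with the clone as a random effect (adjusted p = 0.0581), with the reads of a clone summed (0.0632), without KO 17 (0.0606) and without WT 5 (0.0788). In HCT116 the change of −1.14 did not pass (standard error 0.37, adjusted p = 0.0628). It passed without KO 47A (−1.34) or KO 47B (−1.27), with an adjusted p of 0.0480 each, and with DESeq2 (−1.17, adjusted p = 0.0231).

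The log2 ratios of *NR2F2* to *NR2F2-AS1* of KO and WT libraries overlapped in all 3 lines. The ratio was 7.04 ± 0.20 in WT and 6.83 ± 0.34 in KO libraries of HCT116 (SD, n = 4), with an exact two-sided permutation p of 0.286, and without KO 47A the difference was −0.08 (exact p = 0.571). In SW480 it was 7.04 ± 0.19 in WT and 6.60 ± 0.43 in KO libraries, with an exact p of 0.114. The HT29 ratios of 9.13 ± 0.45 and 9.05 ± 0.12 rest on the few *NR2F2-AS1* reads (exact p = 0.857). Adjusted over the 6 ratios compared, these exact p-values were 0.429, 0.229 and 0.943. The clone with more *NR2F2* had more *NR2F2-AS1* in 4 of 6 pairs of clones, which include the HT29 pairs with few reads. Over the 24 libraries the correlation was 0.882 after subtracting the mean of each line and 0.796 after subtracting that of each line and genotype, and without KO 47A it was 0.899 and 0.80.

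**Figure D2:**
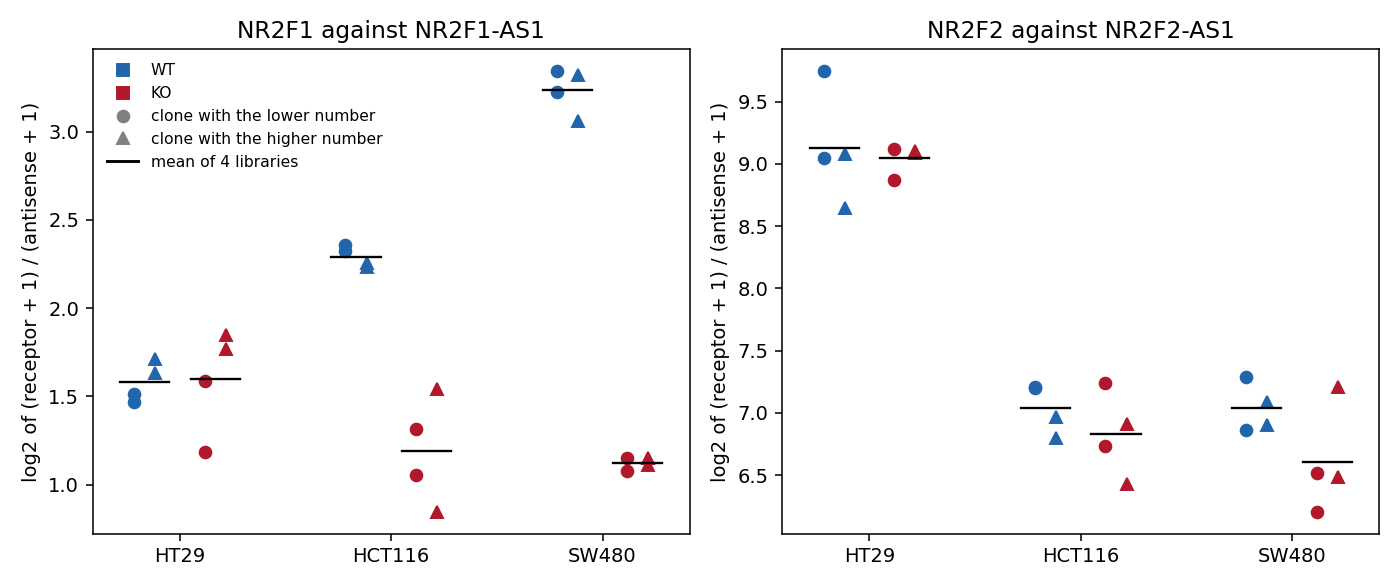
Log2 ratio of each receptor to its antisense RNA per library (WT blue, KO red, circles and triangles for the 2 clones, a line for the mean of 4 libraries). For *NR2F1* the KO ratios of HCT116 (0.85 to 1.54) and SW480 (1.08 to 1.15) lie below all WT ratios of the line and the HT29 groups overlap, whereas for *NR2F2* the groups overlap in all 3 lines.

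*NR2F6*, the gene for EAR2, had the smallest fold change among the members tested in each line, and its KO and WT libraries overlapped in all 3 lines. In HT29 it was at 3259 and 3519 in WT 11, 2542 and 2905 in WT 40, 4619.7 and 4301 in KO 28, and 3269 and 5565 in KO 38. All but 1 KO library were above all WT libraries in HT29, and KO 38A was within the WT range. The HCT116 libraries ran from 1849.7 to 2712 for WT and from 1859 to 2395 for KO, and those of SW480 from 974 to 1225 for WT and from 763 to 1237 for KO. The log2 fold change was 0.52 for HT29 with a standard error of 0.19 (limma adjusted p = 0.216). It was 0.03 for HCT116 (error 0.14, adjusted p = 0.896), 0.04 there without KO 47A (adjusted p = 0.889), and −0.17 for SW480 (error 0.15, adjusted p = 0.393). In SW480, KO 17 held less than KO 21, at 763 and 926 against 1237 and 1224, and without KO 21 the change was −0.44 with an adjusted p of 0.0104. That fit leaves KO 17 as the only KO clone.

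Differences between the KO effects of 2 lines passed the test for *NR2F2* and *NR2F2-AS1* and for 0 of the other 3 genes. For *NR2F2* the KO effect of HCT116 minus that of SW480 was −1.96 (standard error 0.36, limma adjusted p = 6.2e-04) and that of HT29 minus SW480 was −1.23 (adjusted p = 0.0231). For *NR2F2-AS1* the difference between HCT116 and SW480 was −2.18 (adjusted p = 0.00679), and those that involve HT29 could not be assessed at its few reads there. Of all genes tested, 13.2% differed between HCT116 and SW480, 15.8% between HT29 and SW480 and 7.25% between HT29 and HCT116. Both differences between HCT116 and SW480 passed in all 28 alternatives, with adjusted p up to 0.00226 for *NR2F2* and 0.0398 for *NR2F2-AS1*, and without KO 47A they were −2.03 and −2.38. For *NR2F2* the difference between HT29 and SW480 was lost without HT29 KO 38A (adjusted p = 0.0534), without SW480 WT 5A (0.0564) or with the clone as a random effect (0.0553).

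For *NR2F1*, *NR2F1-AS1* and *NR2F6*, 0 of 9 differences between lines passed in limma, with or without KO 47A, and 3 of the 9 had an unadjusted p under 0.05. For *NR2F1* the differences were −0.84 for HT29 minus HCT116 (adjusted p = 0.508), 0.44 for HT29 minus SW480 (0.715) and 1.28 for HCT116 minus SW480 (0.240). For *NR2F1-AS1* they were −1.96 (adjusted p = 0.109), −1.70 (0.126) and 0.26 (0.875) in the same order, and both that involve HT29 passed without KO 28A (0.0301 and 0.0318) or KO 28B (0.0161 and 0.0166). The *NR2F6* difference of HT29 minus SW480 was 0.69 (adjusted p = 0.0543), and it passed in 7 of 28 alternatives, namely with a pseudocount of 5 and without HT29 KO 38A, HT29 WT 11B, HCT116 WT 4A, SW480 KO 21A, SW480 KO 21B or SW480 WT 5B, with adjusted p down to 0.0170.

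**Figure D3:**
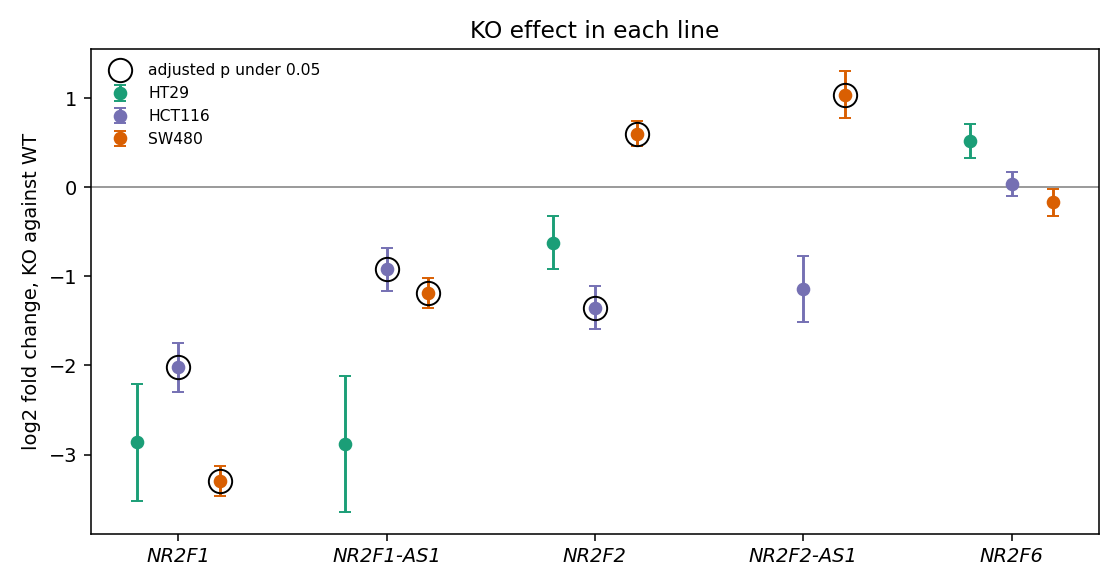
Log2 fold change of KO against WT for each NR2F gene and line, with bars for the standard error from limma and a ring where the adjusted p was under 0.05. *NR2F1* and *NR2F1-AS1* are below 0 in all 3 lines, *NR2F2* is ringed below 0 in HCT116 and above 0 in SW480, and *NR2F2-AS1* has no point in HT29, where it was not tested.

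Clones of the same line and genotype differed in 12 of 28 tests of NR2F genes, which involved 4 of the 5 genes, and by the largest amounts in HT29 KO. KO 28 exceeded KO 38 by log2 differences of 2.65 for *NR2F1* (limma adjusted p = 2.6e-04), 3.07 for *NR2F1-AS1* (adjusted p = 2.3e-04) and 1.10 for *NR2F2* (adjusted p = 0.00494), whereas *NR2F6* did not pass (0.06, adjusted p = 0.877). Between the HT29 WT clones 0 of the 4 genes tested passed, with differences of 0.32 to 0.56. In HCT116, WT 4 had more *NR2F1* (0.98, adjusted p = 0.0230) and *NR2F1-AS1* (0.88, adjusted p = 0.0174) than WT 6 but less *NR2F2* (−0.70, adjusted p = 0.0257), so that the receptors went in opposite directions. KO 44 had less *NR2F2* than KO 47 (−0.69, adjusted p = 0.0135), and against KO 47B alone it had less *NR2F2* (−0.83, adjusted p = 0.00993) and less *NR2F1* (−0.72, adjusted p = 0.0415). In SW480, WT 4 had more *NR2F1* (0.47) and *NR2F2* (0.52) than WT 5, and KO 17 had less *NR2F1* (−0.48), *NR2F1-AS1* (−0.47) and *NR2F6* (−0.55) than KO 21. Among all genes tested, the share that differed between the WT clones was 9.02% for HT29, 2.61% for HCT116 and 8.88% for SW480, and between the KO clones it was 16.0%, 7.16% and 28.0%. The error in these comparisons comes from 2 rounds per clone.

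Among 13027 other genes tested in all 3 lines (13028 for *NR2F2-AS1*), those whose pattern was most like that of a member were picked by the Pearson correlation over the 24 libraries after subtracting the mean of each line. For *NR2F1* they were *NECTIN1* (0.943), a cell adhesion gene, *FGF19* (0.932), a secreted growth factor, its own antisense *NR2F1-AS1* (0.895), *ATIC* (0.889), a purine synthesis enzyme, and *SERPINH1* (0.886), a collagen chaperone. For *NR2F1-AS1* they were *RHOBTB3* (0.956), *ANO1* (0.951), a chloride channel, *ZNF503* (0.940), *INTS14* (0.938), and *XRCC5* (0.905), a subunit of the Ku DNA repair complex. For *NR2F2* they were *EIF4E* (0.868), the factor that binds the mRNA cap, *ITPRID2* (0.867), *RIOK2* (0.865), *WDR75* (0.855) and *RPS6KA5* (0.851). *NR2F2-AS1*, which was not tested in HT29, was closest to *NR2F2* (0.882), ahead of *WDFY1* (0.839), *ITPRID2* (0.837), *RCHY1* (0.818) and *RPS6KA5* (0.818). Those nearest to *NR2F6* were *TPRA1* (0.881), *NPDC1* (0.872), *AKR7A2* (0.859), *JTB* (0.853) and *DUSP22* (0.853). These correlations contain the KO effect and the differences between the same 12 clones.

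The other genes of the receptor system were counted against all genes tested, of which 2.08% rose and 0.476% fell in HT29, 8.05% rose and 5.93% fell in HCT116, and 26.1% rose and 22.1% fell in SW480. Of 9 other NR2 receptors, 6 were tested in HT29 and in HCT116 and 5 in SW480. In HT29 0 of them passed, in HCT116 2 rose, the testicular receptor gene *NR2C1* (0.79, limma adjusted p = 0.00118) and *RXRB* (0.48, adjusted p = 0.0478, a call lost without KO 47A, where *RXRA* passed instead), and in SW480 1 rose, *RXRA* (0.71, adjusted p = 1.6e-05), both RXR genes encoding dimer partners of COUP-TFs. The medians of these NR2 genes were 0.04, 0.46 and −0.10, against 0.03, −0.01 and 0.00 over all genes tested in HT29, HCT116 and SW480. Of 36 further nuclear receptors, 0 of 22 passed in HT29, 6 of 23 rose and 3 fell in HCT116, and 10 of 24 rose and 6 fell in SW480, where 6 of 24 is near the share of all genes that fell. Without KO 47A 4 rose and 2 fell in HCT116. The largest changes were those of *NR3C2* (1.83) and *NR3C1* (1.81), the mineralocorticoid and glucocorticoid receptors, in HCT116, and of *THRB* (7.77), a thyroid hormone receptor, and *PPARG* (7.52), a fatty acid receptor, in SW480, where their WT means were only 1.46 and 6.57 normalized counts. The medians of this list were −0.01, 0.19 and 0.25.

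Of 13 cofactors of nuclear receptors, 0 of 11 tested passed in HT29. In HCT116 3 of 13 rose and 1 fell, and in SW480 2 of 13 rose and 3 fell, with medians of −0.27, −0.06 and −0.26 in the 3 lines. *BCL11A* and *ZFPM2*, both known as partners of COUP-TFs, rose in HCT116 (2.90 and 0.92, limma adjusted p = 0.0336 and 0.0225) and fell in SW480 (−1.39 and −1.16, adjusted p = 0.00635 and 0.00317), at low levels of 5.75 to 72.3 normalized counts. Without KO 47A 2 cofactors rose and 1 fell in HCT116, and *BCL11A* did not pass. Of 15 genes described as regulated by COUP-TFs, 0 of 7 tested passed in HT29, 3 of 6 rose in HCT116, and 3 of 7 rose and 2 fell in SW480, with medians of 0.13, 0.54 and −0.13. *NRP2*, a semaphorin receptor (3.05), and *SOX9*, a transcription factor of the crypt base (1.40), had the largest changes in HCT116, and in SW480 the transcription factor genes *HEY2* (−4.52) and *FOXC1* (−1.94). The HCT116 count was the same without KO 47A.

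The WNT target genes that passed all fell, like *NR2F1*. Of 16 genes, 5 of 10 tested fell and 0 rose in HT29, 8 of 12 fell and 0 rose in HCT116, and 15 of 15 fell in SW480, with medians of −1.17, −0.96 and −3.52. Without KO 47A 8 of 12 fell in HCT116 as well. *AXIN2*, a negative regulator of the pathway, fell in all 3 lines (−3.70, −5.25 and −4.74 in HT29, HCT116 and SW480), as did the metalloprotease gene *ADAM19* (−2.41, −3.61 and −2.47), the transcription factor gene *TCF7* (−1.96, −1.02 and −1.52) and *ZNRF3*, a ubiquitin ligase for WNT receptors (−1.14, −0.64 and −2.36). *LGR5* had the largest fall in HT29 (−4.36), *AXIN2* and *RNF43* in HCT116 (−5.25 and −4.76), and *NOTUM* and *SP5* in SW480 (−8.32 and −8.23). Several genes of this list, *AXIN2* and *ADAM19* among them, were named by the study from these libraries, so that their count is not independent evidence.

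The protein-coding neighbours of the receptor genes were few, and in SW480 26.1% of all genes tested rose and 22.1% fell, so that calls among them are common there. Of the 6 nearest around *NR2F1*, 0 of 4 tested passed in HT29, 1 of 5 rose and 0 fell in HCT116, and 4 of 5 rose and 1 fell in SW480. *ARRDC3* was the riser in HCT116 (0.56) and, with *ADGRV1* (2.07), had the largest rise in SW480 (1.35). Around *NR2F2*, 0 of 4 passed in HT29 and 0 of 5 in HCT116, and in SW480 1 of 4 rose, the chromatin remodeller *CHD2* (0.32), and 1 fell, *RGMA* (−1.47). Around *NR2F6*, 0 of 4 and 0 of 5 passed in HT29 and HCT116, and 2 of 4 rose and 1 fell in SW480, with *OCEL1* (0.89) and *MYO9B* (0.30) as the largest. The medians were 0.01, 0.30 and 0.85 around *NR2F1*, −0.11, 0.24 and 0.15 around *NR2F2*, and 0.32, 0.02 and 0.18 around *NR2F6*. The numbers of neighbours that passed in HCT116 were the same without KO 47A.

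Levels of epithelial markers and of markers of other cell types were compared between genotypes as well. The summed level of 7 epithelial markers was 300433 to 427616 in WT and 408210 to 655177 in KO libraries of HT29, 109678 to 131906 and 120933 to 158503 in HCT116, and 136582 to 189299 and 146174 to 165083 in SW480. Of these, 1 of 6 tested rose and 0 fell in HT29, 2 rose and 2 fell in HCT116, and 0 rose and 2 fell in SW480, namely *CDX2* (−3.49) and *EPCAM* (−0.99). Calls were common for any gene in SW480, as 22.1% of those tested fell and 26.1% rose. The shares of falling and rising genes were lower for HCT116, at 5.93% and 8.05%, and lowest for HT29, at 0.476% and 2.08%. *KRT20*, a marker of differentiated cells, rose in HT29 (2.34) and fell in HCT116 (−5.78), where *CDH1* rose (1.17), and without KO 47A 2 rose and 1 fell in HCT116. The sum of 8 markers of other cell types was 14.2 to 25.1 in WT and 30.2 to 89.2 in KO libraries of HT29, 290 to 462 and 330 to 400 in HCT116, and 202 to 443 and 248 to 373 in SW480. In HT29 and HCT116 1 of them was tested and 0 passed, and in SW480 2 of 4 fell and 1 rose, with *COL1A2* (−5.77) and *VWF* (2.98) as the largest. *DCN* and *ALB* were at 0 in all HT29 libraries. The part of these levels in the changes of the NR2F genes was not tested.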

How the data were processed

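RNA-seq libraries of 2 WT and 2 KO clones each of HT29, HCT116 and SW480 were made by the authors from total RNA with the TruSeq RNA Sample Prep Kit v2. Per the submitters' processing notes, reads were aligned to GRCh37 with STAR 2.7.5b and counted per gene with featureCounts 2.0.1, and DESeq2 2.11.40.6 was used. The annotation and the strand setting of the counting are not given in the sources used here. The per-gene values that the authors deposited are signal, that is, counts divided by 1 size factor per library. Dividing each library by its smallest step gave whole reads for 100% of its genes (tolerance 0.001), between 22297049 and 29068378 per library. The recovered steps differed from DESeq2 size factors by at most 4.7e-10 in relative terms. Counting error was largest for *NR2F2-AS1*, with 2 to 8 reads per HT29 library, and for *NR2F1-AS1* in HT29 KO 38, with 16 and 15 reads. Tables of the authors' own comparisons (fold changes and p-values of DEGs) were not used.

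Because the values are not raw counts, log2(value + 1) was tested with limma 3.58.1, using its trended and robust variance estimates. Genes entered the test of a line if 4 or more of its 8 libraries had values of 10 or more, and the test of differences between lines if 4 or more of the 24 had. KO effects of a member were compared between lines only where it was tested in both. The Benjamini-Hochberg adjustment covered all genes tested. Ratios of receptor to antisense were compared with exact two-sided permutation tests in scipy 1.17.1. Positions were read from GENCODE v44lift37 on GRCh37, and 95.8% of identifiers had a symbol. One gene of the lists, of 104 in all, had no match. Alternatives were edgeR 4.0.16 with TMM and RLE, the Wald test of DESeq2 1.42.0, TMM scaling in limma, reads of a clone summed, the round as a replicate block, clones as random effects, pseudocounts of 0.1 and 5, other filters, and each library and clone left out. Comparisons between lines had only the pseudocounts, the random effect, the block and single libraries left out as alternatives. The limma, edgeR and DESeq2 tests were checked on simulated reads with known changes. These were drawn independently for each library without differences between clones, so the check does not cover libraries of the same clone. R 4.3.3, Python 3.11.15, numpy 2.4.6, pandas 2.3.3 and matplotlib 3.10.9 were used.

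The members, gene lists and tests were chosen with earlier results of these data known. Named genes were the members, *CTNNB1*, the 5 genes most like each member, and from each list the genes that passed in the same direction in all 3 lines and up to 2 per line with the largest absolute fold change among those that passed. Whether rounds pair the libraries was checked by correlating the differences between rounds of each pair of clones across genes. The correlation was over 0.1 for 6 of 6 pairs of HCT116 clones (lowest 0.182), but for only 2 of 6 of HT29 and 1 of 6 of SW480, so that rounds were taken as pairing the HCT116 libraries only. The block was an alternative in each line, as the study's methods have no such term.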

Additional observations from a re-analysis of the deposited data

Results flagged for a closer look

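Of the KO effects of the 5 genes, 3 differences between lines passed the test of the difference itself (limma over the 24 libraries with Benjamini-Hochberg adjustment), all of them against SW480 and all at the *NR2F2* locus. The *NR2F2* effect was lower in HT29 than in SW480 by −1.23 on the log2 scale and lower in HCT116 than in SW480 by −1.96. For *NR2F2-AS1* the difference between HCT116 and SW480 was −2.18, and HT29 was not compared because it held too few reads. The *NR2F2* difference between HT29 and SW480 was lost in 3 of 28 alternatives, with adjusted p up to 0.0564. In HT29 the *NR2F2* levels of KO 28 were within the WT range and those of KO 38 below it. In 0 of the 30 groups of 4 libraries was a library set apart from the other 3 by Dixon's test. Where the clones of a group differ, its values fall into pairs, which this test cannot flag.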

How the results depend on the processing

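The 14 KO effects of the NR2F genes that could be tested were recomputed in 322 fits. In 292 the call was as before, in 16 a call was lost and in 14 one was gained. The sign changed in 6 fits, all of them of uncalled *NR2F6* effects. *NR2F1* and *NR2F1-AS1* in SW480 kept their calls in all 23 alternatives each. With DESeq2, *NR2F1* and *NR2F1-AS1* in HT29 passed at −2.38 and −2.26 and *NR2F2-AS1* in HCT116 at −1.17. The filter of any value above 0 made *NR2F2-AS1* in HCT116 pass at −1.14. With the clone as a random effect, *NR2F1-AS1* in HCT116 (−0.92) and *NR2F2-AS1* in SW480 (1.04) lost the call. With the reads of a clone summed, the calls of *NR2F1* (−2.02), *NR2F1-AS1* (−0.94) and *NR2F2* (−1.36) in HCT116 and of *NR2F2* (0.60) and *NR2F2-AS1* (1.09) in SW480 were lost, with fewer samples by construction. Fits without a clone leave a single clone of that genotype, so the spread between its clones is not in their error. Without KO 28 of HT29, *NR2F1* (−4.19), *NR2F1-AS1* (−4.42) and *NR2F2* (−1.18) passed, and without KO 38 *NR2F1* (−1.54) and *NR2F1-AS1* (−1.34). In HCT116, *NR2F1-AS1* did not pass without KO 44 (−0.69) or WT 4 (−0.48), whereas *NR2F2-AS1* passed without KO 47 (−1.65) or WT 4 (−1.65). In SW480, *NR2F2-AS1* did not pass without KO 17 (0.81) or WT 5 (0.82) and *NR2F2* not without KO 21 (0.58), where *NR2F6* passed (−0.44). With single libraries left out, *NR2F1-AS1* in HCT116 ranged from −1.10 to −0.76 and *NR2F2-AS1* from −1.34 to −0.93. Apart from the clones named, the cause of these changes was not tested.

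Of the genes tested 382 passed for HT29, 2154 for HCT116 and 7857 for SW480. In HT29 it was 1229 with DESeq2, 121 with the clone as a random effect, 234 with the filter of 10 in every library, 809 without KO 38, 213 without WT 40, 0 with the reads of a clone summed (856 at an unadjusted p under 0.05), and 115 to 344 with single libraries left out. In HCT116 it was 1067 with the clone as a random effect, 383 with summed reads, 1226 without KO 44, 963 without WT 6, and 1301 to 2481 with single libraries left out. In SW480 it was 3760 with summed reads. Between lines, the clone as a random effect gave 462, 1519 and 1207 genes for HT29 minus HCT116, HT29 minus SW480 and HCT116 minus SW480, against 1350, 2943 and 2462.

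With the replicate block of the round, 223 genes passed in HT29, and 0 of the 14 calls of NR2F genes changed, for example adjusted p = 0.106 for *NR2F1* in HT29, 0.00473 in HCT116 and 1.5e-06 in SW480 from limma. Permuting labels within rounds, the exact p for *NR2F1* against *NR2F1-AS1* was 0.0556 in HCT116 and SW480, the smallest that this scheme can give. Leaving out libraries and the block for the WT levels, and leaving KO 47A out of list counts, clone comparisons and correlations, were added after the data had been seen, as was the limit of differences between lines to genes tested in both. With 2 to 8 reads of *NR2F2-AS1* per HT29 library, a change there was not detectable at this depth.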
